A study of Saccharomyces cerevisiae with 12 samples.

Results

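The 56 genes *RPS0A* to *RPS31* encode the protein part of the small (40S) subunit of the cytosolic ribosome of budding yeast. They were taken by systematic name from the 5917 coding sequences of the count tables, and all 56 were present. They encode 32 proteins. 8 of these come from a gene without a paralog, and 24 come from a pair of duplicated genes called A and B. The libraries came from BY4741, a haploid laboratory strain of mating type a with deletions in *HIS3*, *LEU2*, *MET17* and *URA3*, and from *mrn1Δ*, made in BY4741 by integrating a kanamycin resistance cassette at the *MRN1* locus. *MRN1* encodes an RNA-binding protein. Respiratory libraries came from cells grown to an OD600 of 0.6 in rich medium with 2% glucose and then held for 20 minutes in rich medium with 2% ethanol and 2% glycerol, and fermentative libraries came from cells taken in the glucose medium. There were 3 libraries in each of the 4 groups, *mrn1Δ* respiratory, wild-type respiratory, *mrn1Δ* fermentative and wild-type fermentative, from triplicate cultures of each strain.

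The small subunit binds the mRNA and holds the decoding site where codons meet tRNAs. Each of its proteins is needed in equal numbers, and the genes for ribosomal proteins are among the most heavily transcribed in a growing yeast cell. Rap1, Fhl1, Ifh1 and Sfp1 bring about that transcription under the control of the nutrient-sensing TOR and protein kinase A pathways, and it is known to be cut back within minutes when glucose is withdrawn. Most of the duplicated genes descend from an ancient duplication of the whole genome. Their proteins are nearly identical while their promoters, introns and untranslated regions differ.

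The count for each coding sequence is an estimate from kallisto, which divides a read that matches several sequences among them, so it matters how far paralogs can be told apart. Fractional counts, which show such divided reads, occurred for 47 of the 56 genes, and 9 had whole counts throughout. The coding sequences of 9 of the 24 pairs encode the same protein, and 7 further pairs differ in 1 residue. A window of 50 bases, the fragment length implied by the deposited effective lengths, was slid along each coding sequence, and 26 of the 56 had only windows found in no other coding sequence. Among the pairs that were hard to separate were *RPS6A* and *RPS6B*, with 27.9% of windows unique, *RPS4A* and *RPS4B* with 53.2%, and *RPS24A* and *RPS24B* with 61.8%. For *RPS7*, *RPS22*, *RPS27* and *RPS28* the share was between 99.2% and 100%.

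The stretches below show part of the differences on which the division of reads between paralogs rests. The whole coding sequences hold 24 differences in *RPS28*, 85 in *RPS7* and 41 in *RPS22*. Each is the 60-base window of the coding sequence (R64 reference, RefSeq) with the most differences between the paralogs, written 5′ to 3′ on the coding strand, with the bases that differ in capitals. In *RPS28*, 10 of the 60 bases differ at the very start of the coding sequence, and in *RPS7* 18 of 60 differ.
RPS28A: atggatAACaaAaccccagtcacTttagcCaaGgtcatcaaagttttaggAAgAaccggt
RPS28B: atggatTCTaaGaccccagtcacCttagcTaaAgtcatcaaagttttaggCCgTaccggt
RPS7A: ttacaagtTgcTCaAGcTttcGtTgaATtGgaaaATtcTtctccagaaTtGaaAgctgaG
RPS7B: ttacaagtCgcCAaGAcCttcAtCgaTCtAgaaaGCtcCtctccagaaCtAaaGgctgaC
RPS22A: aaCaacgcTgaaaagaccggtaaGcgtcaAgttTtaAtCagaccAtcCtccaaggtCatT
RPS22B: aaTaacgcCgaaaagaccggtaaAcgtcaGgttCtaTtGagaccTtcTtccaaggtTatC
These lie in exons at chrXV:648948-649007 on the minus strand, chrXII:673131-673190 on the plus strand, chrXV:505845-505904 on the plus strand, chrXIV:444205-444264 on the minus strand, chrX:75201-75260 on the minus strand and chrXII:856484-856543 on the plus strand. In *RPS6* the richest window holds only 2 differences of the 6 in the whole coding sequence of 711 bases.
RPS6A: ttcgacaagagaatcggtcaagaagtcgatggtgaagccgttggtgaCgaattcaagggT
RPS6B: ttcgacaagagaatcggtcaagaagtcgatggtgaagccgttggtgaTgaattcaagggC
These lie in exons at chrXVI:377861-377920 on the minus strand and chrII:592282-592341 on the minus strand. Values of *RPS6A* and *RPS6B* taken apart are therefore less certain than their sums.

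Library totals ranged from 16231559 to 26542199 estimated counts, and the lowest count of any of the 56 genes in any library was 262, so all 56 passed the expression filter in every comparison. Levels are given as CPM, estimated counts scaled to a common library size after TMM normalization, which is relative to the rest of the library. Less of a transcript per cell, fewer cells with it and more of other transcripts therefore cannot be told apart. Levels are compared between genes only in TPM, which divides by length. *MRN1* had 0.203 ± 0.126 TPM in *mrn1Δ* and 59.1 ± 2.22 TPM in wild-type respiratory libraries, and 0.178 ± 0.162 TPM in *mrn1Δ* and 67 ± 12.9 TPM in wild-type fermentative libraries (mean ± SD, n = 3 each). *LEU2*, *MET17* and *URA3* had group means below 1 TPM, *HIS3* had group means of 37.1 to 92.5 TPM, and the mating-type receptor genes *STE2* and *STE3* had 84.1 to 138 and 1.82 to 3.36 TPM. *ADH2* and *JEN1*, which glucose represses, rose by 3.86 and 6.73 on the log2 scale in *mrn1Δ* and by 3.53 and 5.43 in wild-type cells after the shift. They had the largest rises of 6 such genes. The smallest was in *MLS1*, 0.82 in *mrn1Δ* and 0.20 (standard error 0.19) in wild-type cells. Of 2 genes that glucose induces, *HXT1* changed by -0.57 in *mrn1Δ* and -0.36 in wild-type cells. The other, *HXT3*, did not fall, with 0.05 in *mrn1Δ* and 0.58 in wild-type cells.

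All 56 genes fell after the shift, in both genotypes. The small-subunit genes together took 2.32% ± 0.196 of the estimated counts in *mrn1Δ* respiratory libraries and 2.53% ± 0.0366 in wild-type respiratory libraries, against 5.82% ± 0.169 in *mrn1Δ* and 6.10% ± 0.471 in wild-type fermentative libraries (SD, n = 3 each). The share lay between 2.10% and 2.57% in the 6 respiratory libraries and between 5.66% and 6.64% in the 6 fermentative libraries, with 95% Wilson intervals for counting error of under 0.03 percentage points. The difference was -3.53 percentage points (two-sided exact permutation test of stage within genotype, p = 0.005, the smallest that its 400 arrangements allow). By TPM the groups held 6.25% and 6.78%, against 13.8% and 13.8%, in the same order.

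**Figure D1:**
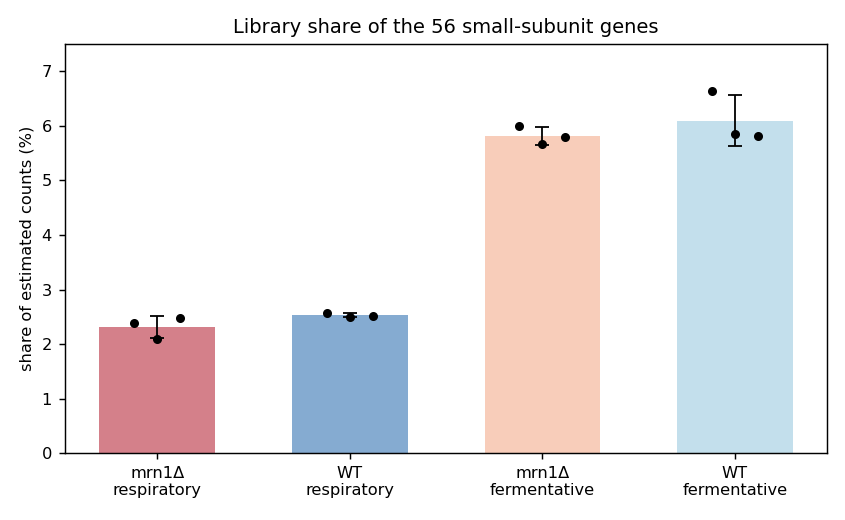
Share of estimated counts (%) on the 56 small-subunit genes. Points are libraries, bars the mean of 3 libraries and whiskers the SD. The 6 respiratory libraries lie between 2.10% and 2.57% and the 6 fermentative ones between 5.66% and 6.64%.

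Gene by gene, edgeR (quasi-likelihood test, p adjusted over all genes by Benjamini-Hochberg) called all 56 lower in *mrn1Δ* and all 56 lower in wild-type cells, with 0 higher in either. Calls of lower made up 40.3% of all 5793 genes tested in *mrn1Δ* and 36.4% of all 5801 in wild-type cells. The largest adjusted p among the 56 was 0.000938 in *mrn1Δ* and 0.000975 in wild-type cells, and in every gene the 3 respiratory libraries of a genotype lay below its 3 fermentative libraries. The same held for 2382 of all 5793 genes tested in *mrn1Δ* and 2239 of all 5801 in wild-type cells. The median log2 fold change of the 56 genes was -1.71 in *mrn1Δ* and -1.50 in wild-type cells, so that the median gene kept 0.307 and 0.353 of its fermentative level. Over all genes tested the medians were 0.05 and 0.03. 52 genes in *mrn1Δ* and 50 in wild-type cells fell more than 2-fold, and 9 and 5 fell more than 4-fold. No library left out, and no other normalization, filter or test, changed the direction or the call of any of the 56 genes in either shift.

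**Figure D2:**
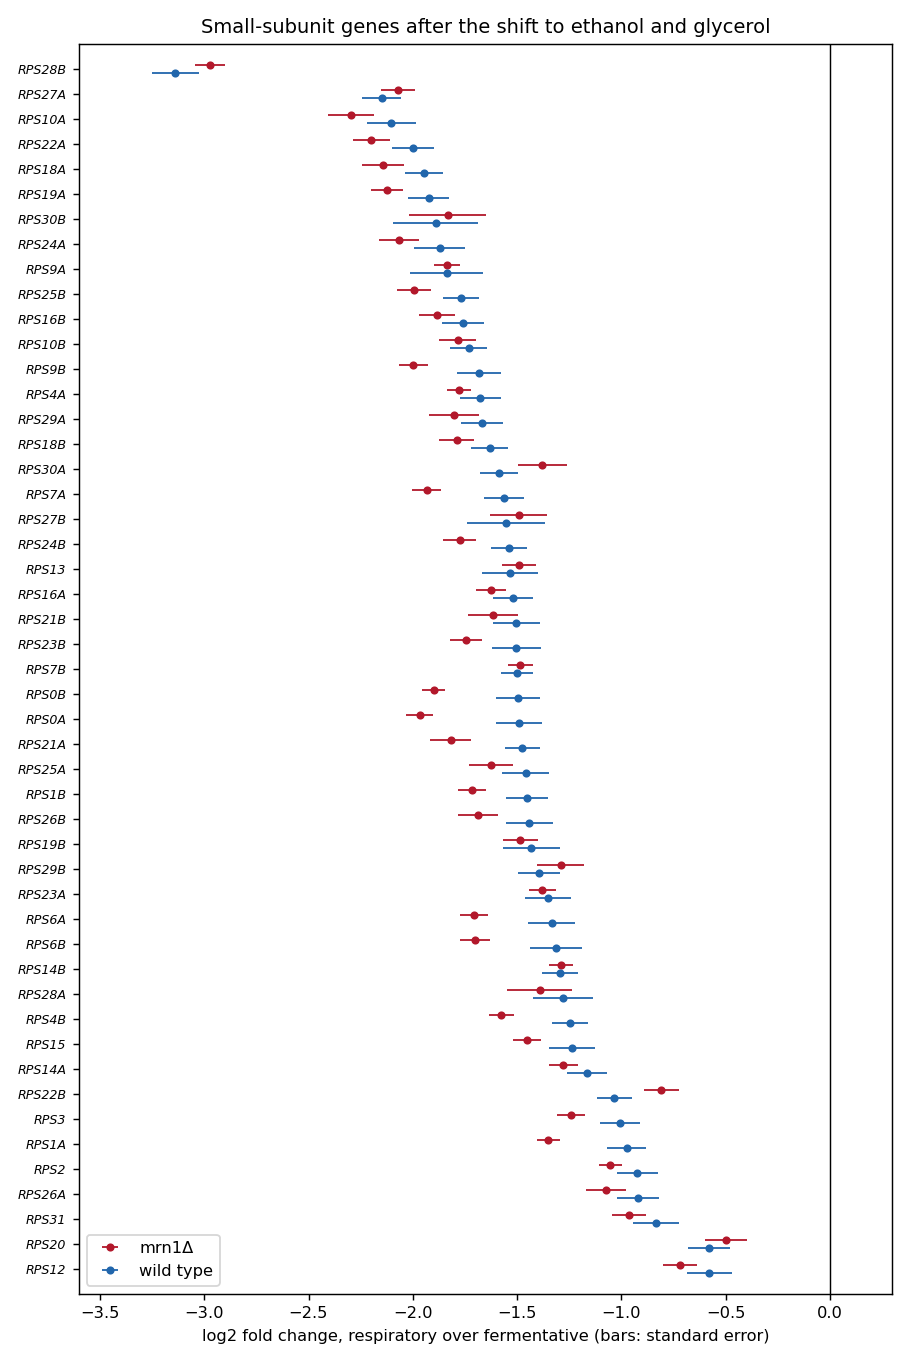
log2 fold change of the 49 small-subunit genes reported singly, respiratory over fermentative, in *mrn1Δ* (red) and wild type (blue), with standard errors as bars; genes are ordered by the wild-type value. All values of both genotypes lie below 0, and *RPS28B* stands furthest left at -2.97 and -3.14 while *RPS12* and *RPS20* stand nearest to 0.

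*RPS28B* fell furthest in both genotypes. Its protein, Rps28, sits on the head of the subunit near the mRNA exit channel, and in yeast Rps28b is known to bind its own mRNA and promote its decay together with Edc3. *RPS28B* (YLR264W) had 15.7, 12.8 and 13.9 CPM in *mrn1Δ* and 12.6, 13.6 and 12.4 CPM in wild-type respiratory libraries, against 109.5, 112 and 109 CPM in *mrn1Δ* and 126, 122 and 97.2 CPM in wild-type fermentative libraries. The log2 fold change was -2.97 (standard error 0.07) in *mrn1Δ* and -3.14 (standard error 0.11) in wild-type cells, and the highest respiratory value was below the lowest fermentative one. *RPS10A*, *RPS27A* and *RPS22A* were also among the genes that fell more than 4-fold in *mrn1Δ*.

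*RPS10A* (YOR293W), for a protein of the head, had 140.2, 110.4 and 152 CPM in *mrn1Δ* and 167, 136 and 146 CPM in wild-type respiratory libraries, against 692, 654 and 632 CPM in *mrn1Δ* and 735, 617 and 607 CPM in wild-type fermentative libraries. Its log2 fold changes were -2.30 (standard error 0.11) in *mrn1Δ* and -2.10 (standard error 0.12) in wild-type cells. *RPS27A* (YKL156W), for a zinc-binding protein of the body, had 35.3, 31.7 and 40.5 CPM in *mrn1Δ* and 35.6, 36.7 and 35.5 CPM in wild-type respiratory libraries, against 146, 148 and 158 CPM in *mrn1Δ* and 183, 154 and 149 CPM in wild-type fermentative libraries. Its log2 fold changes were -2.07 (standard error 0.08) and -2.15 (standard error 0.09) in the same order. In neither gene did the stages overlap in either genotype, and *RPS27A*, like *RPS28B*, had the numerically smaller fall in *mrn1Δ*.

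*RPS20*, *RPS12* and *RPS31*, all without a paralog, had the smallest falls in wild-type cells, and in *mrn1Δ* the smallest were in *RPS20*, *RPS12*, *RPS22B* and *RPS31*. *RPS20* (YHL015W), for a protein of the head, had 899, 765 and 1017 CPM in *mrn1Δ* and 952, 827 and 859 CPM in wild-type respiratory libraries, against 1173, 1243 and 1379 CPM in *mrn1Δ* and 1404, 1371 and 1236 CPM in wild-type fermentative libraries. It changed by -0.50 (standard error 0.10) in *mrn1Δ* and -0.58 (standard error 0.10) in wild-type cells. *RPS12* (YOR369C), for a protein of the beak, had 1323, 1090.0 and 1272 CPM in *mrn1Δ* and 1337, 1323 and 1262 CPM in wild-type respiratory libraries, against 2150.2, 1922 and 2002 CPM in *mrn1Δ* and 2235, 1965 and 1755 CPM in wild-type fermentative libraries. Its log2 fold changes were -0.72 (standard error 0.08) and -0.58 (standard error 0.11), and even in these genes the stages did not overlap within a genotype.

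*RPS31* is made as a fusion of ubiquitin with a ribosomal protein and is one of the cell's sources of ubiquitin. It had 1907, 1634 and 1968 CPM in *mrn1Δ* and 2068, 1885 and 1836 CPM in wild-type respiratory libraries, against 3848, 3444 and 3466 CPM in *mrn1Δ* and 3872, 3384 and 3239 CPM in wild-type fermentative libraries. The log2 fold change was -0.96 (standard error 0.08) in *mrn1Δ* and -0.83 (standard error 0.11) in wild-type cells. All its 50-base windows were unique, but its counts were not whole in 11 libraries.

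Other genes without a paralog lay between these extremes. *RPS2* encodes a protein at the mRNA entry channel and had 1559, 1581 and 1684 CPM in *mrn1Δ* and 1693, 1637 and 1587 CPM in wild-type respiratory libraries, against 3276, 3306 and 3439 CPM in *mrn1Δ* and 3059, 3482 and 2958 CPM in wild-type fermentative libraries. *RPS3* (YNL178W), whose protein lines the same entry channel, had 1139.7, 1039 and 1187 CPM in *mrn1Δ* and 1330.0, 1255 and 1204 CPM in wild-type respiratory libraries, against 2783, 2522 and 2668 CPM in *mrn1Δ* and 2686, 2656 and 2415 CPM in wild-type fermentative libraries. In each of these genes the respiratory libraries lay below all fermentative ones. *RPS2* changed by -1.05 (standard error 0.05) in *mrn1Δ* and -0.92 (standard error 0.10) in wild-type cells, and *RPS3* by -1.24 (standard error 0.07) and -1.01 (standard error 0.10). *RPS13* (YDR064W), for a protein of the body, had 572, 498 and 589.8 CPM in *mrn1Δ* and 630.4, 563 and 599.5 CPM in wild-type respiratory libraries, against 1660.3, 1469 and 1541 CPM in *mrn1Δ* and 2116, 1575 and 1586 CPM in wild-type fermentative libraries. *RPS15* (YOL040C), whose protein reaches from the head towards the decoding site, had 529, 474 and 549.9 CPM in *mrn1Δ* and 689.8, 671 and 619.9 CPM in wild-type respiratory libraries, against 1438, 1379 and 1435 CPM in *mrn1Δ* and 1792, 1539 and 1418 CPM in wild-type fermentative libraries. *RPS13* changed by -1.49 (standard error 0.08) in *mrn1Δ* and -1.53 (standard error 0.13) in wild-type cells, and *RPS15* by -1.45 (standard error 0.07) and -1.24 (standard error 0.11). Over the 8 genes without a paralog the median log2 fold change was -1.15 in *mrn1Δ* and -0.97 in wild-type cells, and over the 48 genes with a paralog it was -1.78 and -1.53. These medians are descriptions, and the 2 sets were not tested against each other.

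Grouped by position in the subunit, the extremes of the falls lay in the head. The 22 genes for proteins of the head had a median log2 fold change of -1.71 in *mrn1Δ* and -1.58 in wild-type cells, with ranges of -2.97 to -0.50 and -3.14 to -0.58. The 34 genes for proteins of the body and platform had medians of -1.71 and -1.50, with ranges of -2.29 to -0.81 and -2.18 to -0.92. Both the largest fall, *RPS28B*, and the smallest, *RPS12* and *RPS20*, thus belong to the head. The 36 genes with an intron in the coding sequence had medians of -1.78 and -1.55, and the 20 without had -1.45 and -1.30.

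The falls were also set beside a promoter motif. Rap1 binds most ribosomal protein promoters, and the letters ACCCNNACA, a core of its known binding sequence, were searched on both strands of the 500 bases before the start codon. They occurred in 18 of the 56 genes (32.1%), in 36 of 82 large-subunit genes (43.9%) and in 5.47% of all 5909 such windows. The 33-base stretches below are examples from *RPS7A* and *RPS1A*, neither of whose paralogs holds the motif in this window, with the matched letters in capitals, 5′ to 3′ on the coding strand.
RPS7A: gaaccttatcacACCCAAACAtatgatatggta
RPS1A: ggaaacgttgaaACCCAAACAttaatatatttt
They lie upstream of the coding sequences at chrXV:505309-505341 and chrXII:1019133-1019165 (R64). The median log2 fold change of the 18 genes with a match was -1.73 in *mrn1Δ* and -1.51 in wild-type cells, and of the 38 genes without one -1.70 and -1.48. Of 2 motifs known from ribosome biogenesis promoters, AAAATTTT (RRPE) occurred in 7.14% of the 56 windows and 12.4% of all windows, and GATGAG (PAC) in 21.4% and 28.3%.

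Levels per length differed widely between the genes. By TPM in wild-type fermentative growth *RPS31* was highest with 8405 ± 419.9, followed over all libraries by *RPS12* with 5098 ± 338 and *RPS20* with 4157 ± 55.1 TPM (SD, n = 3). The lowest were *RPS9A* with 282 ± 2.93, *RPS22B* with 452 ± 28.3 and *RPS14B* with 496 ± 11.6 TPM. The highest gene exceeded the lowest 63.8-fold in *mrn1Δ* and 59.6-fold in wild-type respiratory libraries, against 34.8-fold in *mrn1Δ* and 29.8-fold in wild-type fermentative libraries. The products of *RPS9* and *RPS14* are known to restrict splicing of the *RPS9A* and *RPS14B* transcripts. *RPS9A* (YPL081W) had 36.9, 36.9 and 40.9 CPM in *mrn1Δ* and 31.5, 55.3 and 42.3 CPM in wild-type respiratory libraries, against 141, 130.1 and 139 CPM in *mrn1Δ* and 166, 156 and 146 CPM in wild-type fermentative libraries. *RPS14B* (YJL191W) had 72.2, 69.8 and 70.1 CPM in *mrn1Δ* and 69.5, 79 and 74.3 CPM in wild-type respiratory libraries, against 178, 160.0 and 181 CPM in *mrn1Δ* and 199, 186 and 169.9 CPM in wild-type fermentative libraries. The partners of these genes were far higher, *RPS9B* with 3447 ± 36.4 and *RPS14A* with 3296 ± 101 TPM in wild-type fermentative growth.

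Summing the paralogs narrowed these differences. With both genes of a pair added, the 32 proteins' TPM sums spanned 1717 for *RPS29* to 8405 for *RPS31* in wild-type fermentative growth, a ratio of 4.90, and the ratio was 5.27 in *mrn1Δ* fermentative growth. In respiratory growth the ratio was 8.08 in *mrn1Δ* and 7.99 in wild-type cells. The coefficient of variation over the 32 proteins was 54.1% in *mrn1Δ* and 50.5% in wild-type respiratory libraries, against 32.0% in *mrn1Δ* and 29.1% in wild-type fermentative libraries. With counts of paralogs summed before the test, 32 of 32 proteins were called lower in both shifts. In those fits 40.3% of all genes in *mrn1Δ* and 36.6% in wild-type cells were called lower.

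After the shift many pairs changed their balance of A and B. The log2 ratio of A to B counts was fitted with limma over all 78 gene pairs of the genome whose names differ only in a final A or B, on all 12 libraries. It changed in 19 of the 24 small-subunit pairs in *mrn1Δ*, where 66.7% of the 78 pairs changed, and in 14 of 24 in wild-type cells, where 53.8% changed, so these counts lie close to the background of all such pairs. All 14 pairs called in wild-type cells were also called in *mrn1Δ*. The A gene gained in 6 of the 14, among them *RPS1*, *RPS16*, *RPS23*, *RPS26* and *RPS28*, and the B gene in 8, among them *RPS4*, *RPS10*, *RPS18*, *RPS19*, *RPS22*, *RPS24* and *RPS27*. A further 5 pairs, *RPS7*, *RPS25*, *RPS29* and *RPS30* among them, were called in *mrn1Δ* but not in wild-type cells, and of these a difference between the genotypes was called only for *RPS7*. *RPS0*, *RPS6*, *RPS9*, *RPS14* and *RPS21* were called in neither. With the replicate number as a block over all 12 libraries, 16 of 24 pairs changed in wild-type cells, *RPS25* among those added, as did 45 of all 78 pairs. That block joins libraries by number in all 4 groups, including those of different genotypes.

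**Figure D3:**
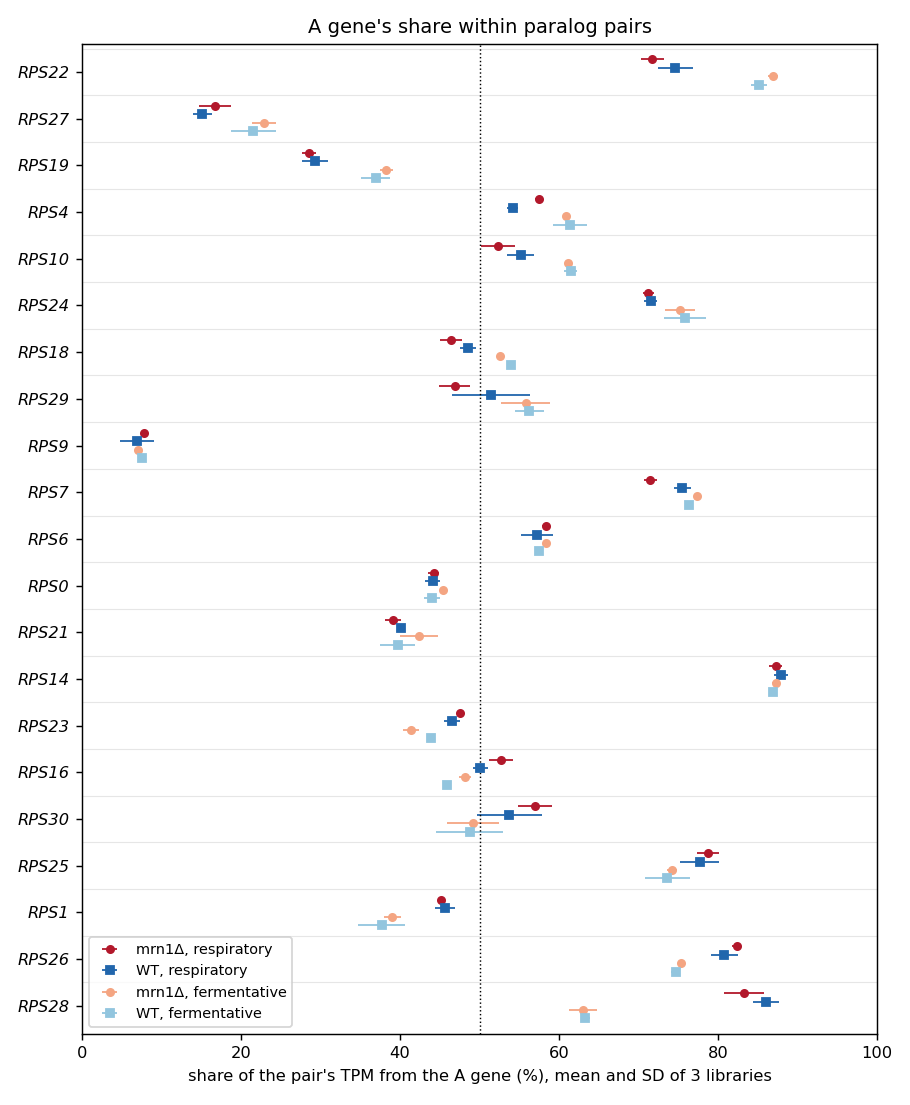
Share of the pair's TPM in 21 paralog pairs that came from the A gene (%), mean and SD of 3 libraries per group, with pairs ordered by the change of the log2 A/B ratio in wild-type cells and a dotted line at 50%. *RPS28* moves furthest to the right, with 83.3% and 86.0% in respiratory against 63.0% and 63.3% in fermentative growth, and *RPS22* furthest to the left.

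*RPS28* changed most. *RPS28A* supplied 83.3% ± 2.5 of the pair's TPM in *mrn1Δ* and 86% ± 1.6 in wild-type respiratory libraries, against 63% ± 1.7 in *mrn1Δ* and 63.3% ± 0.57 in wild-type fermentative libraries (SD, n = 3 each). *RPS28A* (YOR167C) had 77.4, 53.8 and 84.3 CPM in *mrn1Δ* and 74.2, 99 and 69.1 CPM in wild-type respiratory libraries, against 175, 189 and 202 CPM in *mrn1Δ* and 219, 206 and 172 CPM in wild-type fermentative libraries. The log2 ratio of A to B rose by 1.56 (standard error 0.14, limma adjusted p = 8.95e-06) in *mrn1Δ* and 1.84 (standard error 0.14, adjusted p = 2.65e-06) in wild-type cells. *RPS28A* itself fell, by less than *RPS28B*, and its respiratory libraries spread more widely than those of *RPS28B*. All 50-base windows of both genes were unique, but the counts of both were not whole in 12 libraries.

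*RPS22*, whose protein lies in the body, changed in the other direction, and it is a pair in which the A gene has no intron in the coding sequence and the B gene has one. *RPS22A* (YJL190C) had 215, 178 and 228 CPM in *mrn1Δ* and 239, 210.2 and 221 CPM in wild-type respiratory libraries, against 945, 945 and 966 CPM in *mrn1Δ* and 976, 924 and 827 CPM in wild-type fermentative libraries. *RPS22B* (YLR367W) had 90.3, 71 and 83.2 CPM in *mrn1Δ* and 70.4, 76.2 and 80.6 CPM in wild-type respiratory libraries, against 151, 138 and 139 CPM in *mrn1Δ* and 169, 148 and 155 CPM in wild-type fermentative libraries. *RPS22A* thus supplied 71.7% ± 1.5 and 74.7% ± 2.2 of the pair in respiratory growth of *mrn1Δ* and wild-type cells, against 87% ± 0.62 and 85.2% ± 0.98 in fermentative growth. The ratio changed by -1.39 (standard error 0.10, adjusted p = 1.92e-06) in *mrn1Δ* and -0.97 (standard error 0.10, adjusted p = 2.69e-05) in wild-type cells on the log2 scale. The difference between these was -0.43 (standard error 0.14, limma adjusted p = 0.146) and was not called.

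In *RPS18* the B gene had the higher TPM in every respiratory library, against the A gene in every fermentative library, in both genotypes. In *mrn1Δ* the same held for *RPS29*, and *RPS16* turned the opposite way, to A in every respiratory library. In wild-type cells the respiratory libraries of *RPS16* and *RPS29* lay on both sides of equality.

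**Figure D4:**
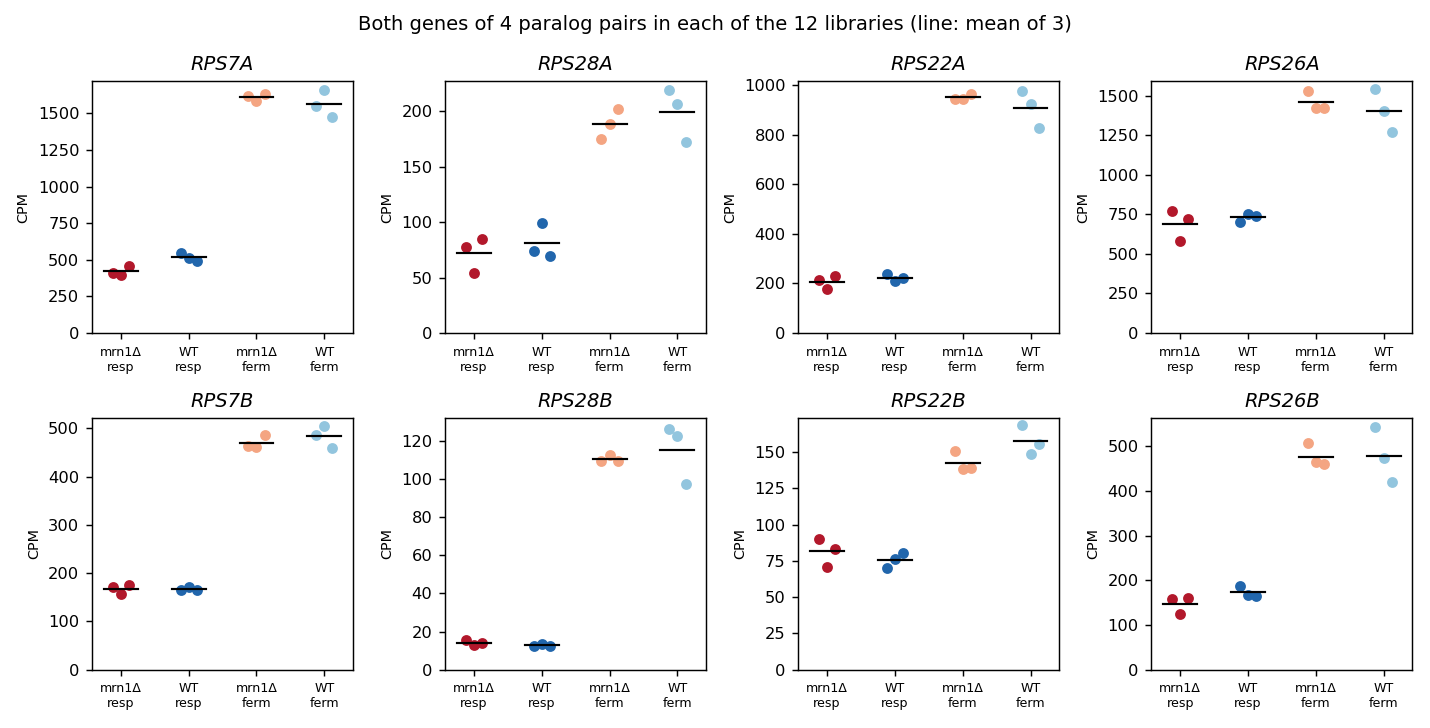
TMM-normalized CPM of both genes of 4 paralog pairs in each of the 12 libraries, with the A gene above and the B gene below and lines at the mean of 3 libraries; all axes start at 0. *RPS28B* lies at 12.4 to 15.7 CPM in respiratory libraries and at 97.2 to 126 CPM in fermentative libraries.

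*RPS27*, *RPS26* and *RPS19* were among the pairs with the larger changes. *RPS27B* (YHR021C) had 208, 139 and 196 CPM in *mrn1Δ* and 224, 194 and 189.5 CPM in wild-type respiratory libraries, against 544, 471 and 513 CPM in *mrn1Δ* and 796, 480.1 and 539 CPM in wild-type fermentative libraries. *RPS27A* supplied 16.7% ± 2.1 and 15.1% ± 1.2 of the pair in respiratory *mrn1Δ* and wild-type cells, against 22.9% ± 1.5 and 21.5% ± 2.8 in fermentative ones, and the log2 ratio changed by -0.57 and -0.62. One wild-type fermentative library, replicate 1, lay well above the other two for *RPS27B*. *RPS26* encodes a protein near the mRNA exit channel. *RPS26A* (YGL189C) had 769.5, 584 and 722 CPM in *mrn1Δ* and 699, 753 and 739 CPM in wild-type respiratory libraries, against 1530.4, 1424 and 1423 CPM in *mrn1Δ* and 1545, 1404 and 1269 CPM in wild-type fermentative libraries. *RPS26B* (YER131W) had 159, 126 and 160.0 CPM in *mrn1Δ* and 187, 167 and 165 CPM in wild-type respiratory libraries, against 506, 464 and 460.1 CPM in *mrn1Δ* and 543, 473 and 419 CPM in wild-type fermentative libraries. The A share rose to 82.4% ± 0.53 and 80.8% ± 1.7 in respiratory growth, against 75.4% ± 0.21 and 74.7% ± 0.6 in fermentative growth, a log2 change of 0.61 and 0.52.

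For *RPS19*, a protein of the head, the A gene lost share. *RPS19A* (YOL121C) had 127, 106 and 123 CPM in *mrn1Δ* and 142, 152 and 152 CPM in wild-type respiratory libraries, against 538, 516 and 501 CPM in *mrn1Δ* and 647, 544 and 529 CPM in wild-type fermentative libraries. *RPS19B* (YNL302C) had 306, 264 and 325 CPM in *mrn1Δ* and 373, 343 and 362 CPM in wild-type respiratory libraries, against 881, 797 and 829 CPM in *mrn1Δ* and 1207, 875 and 879 CPM in wild-type fermentative libraries. The A share was 28.5% ± 0.89 in *mrn1Δ* and 29.3% ± 1.6 in wild-type respiratory libraries, against 38.3% ± 0.85 in *mrn1Δ* and 37% ± 1.8 in wild-type fermentative libraries. In a two-sided exact permutation test of stage within genotype, *RPS28*, *RPS22*, *RPS27*, *RPS26* and *RPS19* each gave the smallest p of the 400 arrangements, 0.005. These pairs were picked for their large change in the same libraries, so this unadjusted p is not separate evidence.

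In *RPS0*, *RPS6* and *RPS21* the ratio moved least in wild-type cells, by 0.01, -0.02 and 0.02 on the log2 scale, with standard errors of 0.04, 0.05 and 0.08. *RPS0* encodes a protein at the back of the platform that joins late in assembly. *RPS0A* (YGR214W) had 353, 350.2 and 391 CPM in *mrn1Δ* and 505, 499 and 437 CPM in wild-type respiratory libraries, against 1399, 1382 and 1507 CPM in *mrn1Δ* and 1282, 1552 and 1290.0 CPM in wild-type fermentative libraries. *RPS0B* (YLR048W) had 447, 453 and 479 CPM in *mrn1Δ* and 617, 659 and 552 CPM in wild-type respiratory libraries, against 1680.2, 1689 and 1789 CPM in *mrn1Δ* and 1709, 1911 and 1622 CPM in wild-type fermentative libraries. Both genes fell together, and *RPS0A* kept 44.1% ± 0.96 of the pair in wild-type respiratory libraries against 44% ± 1 in wild-type fermentative libraries.

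*RPS6* encodes a protein that is phosphorylated in response to TOR signalling. *RPS6A* (YPL090C) had 650.1, 689 and 750.2 CPM in *mrn1Δ* and 917, 911 and 759.6 CPM in wild-type respiratory libraries, against 2294, 2198 and 2343 CPM in *mrn1Δ* and 2229, 2380.3 and 2027 CPM in wild-type fermentative libraries. *RPS6B* (YBR181C) had 454, 503 and 536 CPM in *mrn1Δ* and 639, 746 and 555 CPM in wild-type respiratory libraries, against 1623, 1565 and 1684 CPM in *mrn1Δ* and 1655, 1756 and 1487 CPM in wild-type fermentative libraries. The A share lay between 57.2% and 58.4% in all 4 group means, in a pair whose reads can be assigned at only 27.9% of positions. *RPS21A* (YKR057W) had 99.5, 75.9 and 97.1 CPM in *mrn1Δ* and 104, 110.1 and 102 CPM in wild-type respiratory libraries, against 327, 326 and 307 CPM in *mrn1Δ* and 318, 309 and 267 CPM in wild-type fermentative libraries. *RPS21B* (YJL136C) had 155, 113 and 158 CPM in *mrn1Δ* and 158, 164 and 151 CPM in wild-type respiratory libraries, against 456, 399 and 453 CPM in *mrn1Δ* and 532, 431 and 402 CPM in wild-type fermentative libraries. In this pair all windows are unique, but the counts of both genes were not whole in 12 libraries. The A share was 39.1% ± 1 in *mrn1Δ* and 40.1% ± 0.38 in wild-type respiratory libraries, against 42.4% ± 2.4 and 39.7% ± 2.2 in fermentative libraries.

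Between the genotypes in fermentative growth, no small-subunit gene was called in either direction by edgeR, among 5785 genes of which 0.916% were called. 1 gene, *RPS9A*, had an unadjusted p under 0.05 (1.79% of the 56, against 15.2% of all genes), DESeq2 called 0, and the smallest adjusted p was 0.28. The median log2 fold change of *mrn1Δ* over wild type was -0.02 for the 56 genes and -0.02 for all genes, and single genes ranged from -0.25 to 0.11. *RPS27B* (-0.25, standard error 0.18), *RPS19B* (-0.24, 0.13) and *RPS9A* (-0.19, 0.07) were at the low end. *RPS21A* (0.11, 0.08), *RPS23B* (0.10, 0.11) and *RPS1A* (0.10, 0.08) were at the high end. *RPS23B* (YPR132W), for a protein of the decoding site, had 345, 329 and 361 CPM in *mrn1Δ* and 395, 374 and 352 CPM in wild-type respiratory libraries, against 1259, 1114 and 1093 CPM in *mrn1Δ* and 1245, 1036 and 957 CPM in wild-type fermentative libraries. *RPS1A* (YLR441C), for a protein of the platform, had 705, 673 and 737 CPM in *mrn1Δ* and 842, 869 and 814 CPM in wild-type respiratory libraries, against 1815, 1772 and 1806 CPM in *mrn1Δ* and 1577, 1842 and 1629 CPM in wild-type fermentative libraries. In fermentative growth the libraries of the genotypes overlapped in both genes. Without wild-type fermentative replicate 1 the value of *RPS27B* was 0.0044, with the sign turned. The A to B ratio was called in 0 of 24 pairs by limma, as in 0.0% of the 78 pairs, with 2 of 24, *RPS16* and *RPS23*, at an unadjusted p under 0.05.

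In respiratory growth 13 of the 56 genes (23.2%) were lower in *mrn1Δ* than in wild-type cells and 0 were higher by edgeR. 0 genes had an unadjusted p under 0.05 in the higher direction, and DESeq2 called 0 higher. Over all 5800 genes tested, 7.83% were called lower. Among the 13 genes were *RPS0A*, *RPS0B*, *RPS1A*, *RPS4B*, *RPS6A*, *RPS6B*, *RPS7A*, *RPS9B*, *RPS15*, *RPS19A* and *RPS19B*. The log2 fold changes of the 13 ran from -0.41 to -0.25, so that *mrn1Δ* held 0.755 to 0.842 of the wild-type level. The median over the 56 genes was -0.17, against 0.00 over all genes. Of the 56 values, which rest on the same 6 libraries, 50 were negative, against 2893 of all 5800. In 24 of 56 genes (42.9%) the 3 *mrn1Δ* libraries lay below the 3 wild-type libraries, as in 17.9% of all genes.

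**Figure D5:**
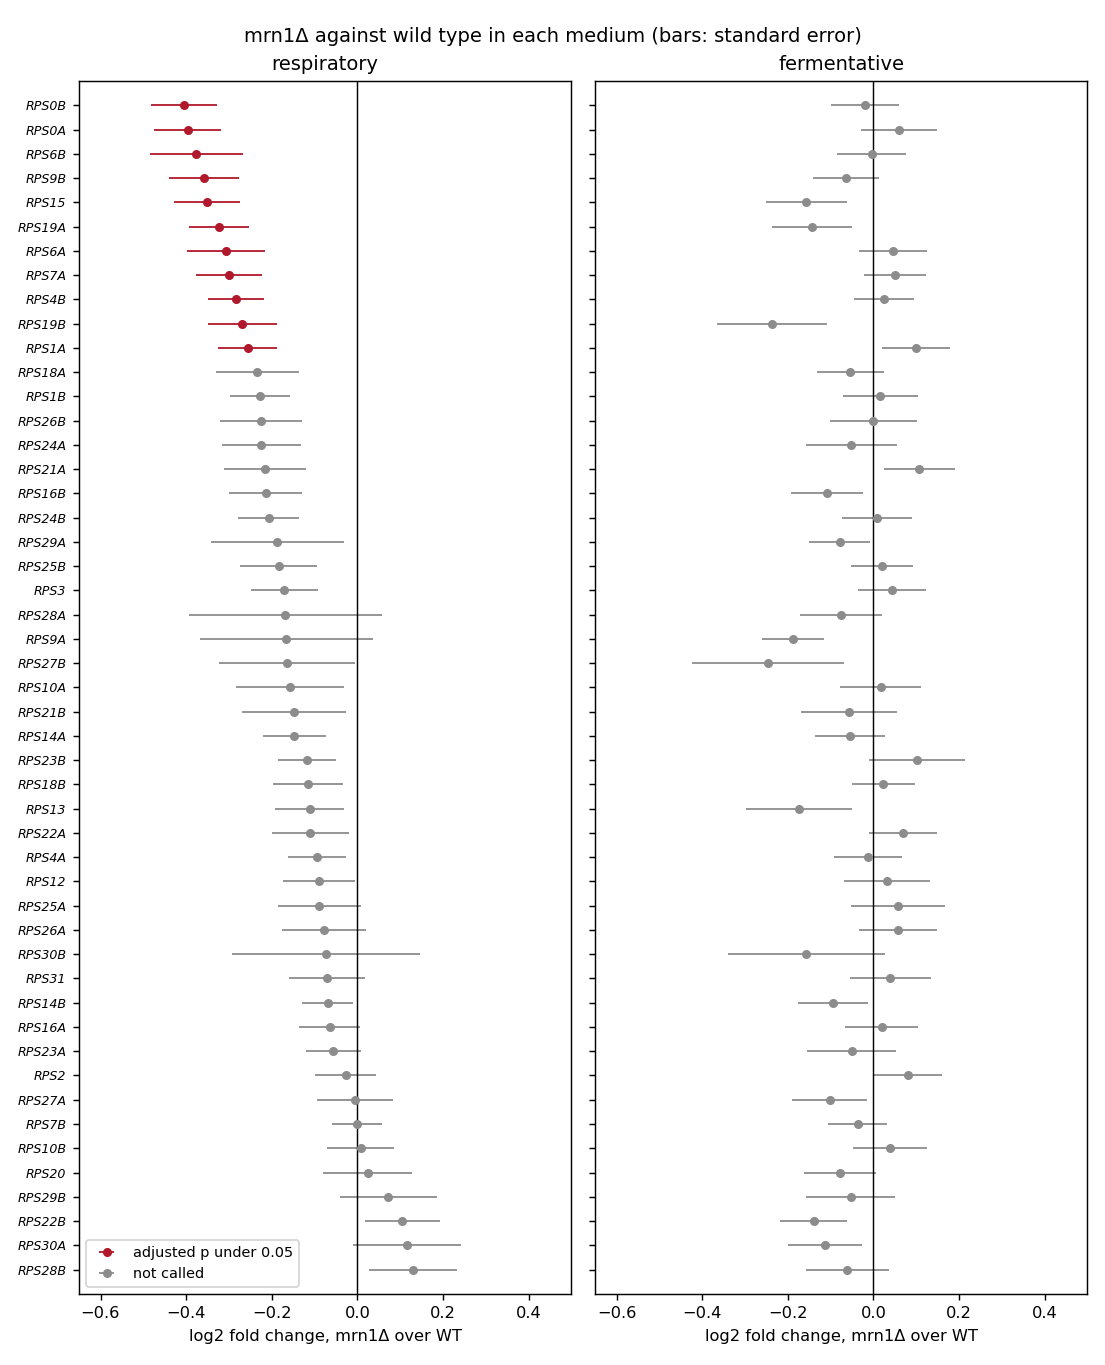
log2 fold change of *mrn1Δ* over wild type for small-subunit genes in respiratory (left) and fermentative growth (right), with standard errors as bars, ordered by the respiratory value; red marks an adjusted p under 0.05. The 49 genes reported singly are drawn, of which 11 are red on the left, from -0.41 to -0.26, and none on the right.

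These calls depended on single libraries. Without *mrn1Δ* respiratory replicate 1 only 1 gene, *RPS19A*, was called lower, and without replicate 2 there were 2 called lower, *RPS0B* and *RPS19A*, and 1 higher, *RPS30A*. In those fits 1.79% and 3.57% of the 56 were called lower, against 3.20% and 2.84% of all genes, so the share of the 56 was close to that of all genes. Without replicate 3, or without wild-type respiratory replicate 1, 2 or 3, there were 10, 7, 11 and 7 called lower, where 4.15%, 5.56%, 8.15% and 4.72% of all genes were. The median of the 56 genes was -0.09 without *mrn1Δ* respiratory replicate 2. DESeq2 called 16, where it called 9.02% of all genes lower. With paralogs summed 6 of 32 proteins were called lower, *RPS0*, *RPS1*, *RPS6*, *RPS9*, *RPS15* and *RPS19*, where 8.02% of all genes were. *mrn1Δ* respiratory replicate 2 had the smallest share on these genes, 2.10%, where replicates 1 and 3 had 2.38% and 2.47%.

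*RPS0* had the largest differences of the 13 genes, in both of its paralogs, which share no 50-base window. Counts of *RPS0A* were nevertheless not whole in 12 libraries, and those of *RPS0B* in 11. *RPS0B* differed by -0.41 (standard error 0.08, adjusted p = 0.00859) and *RPS0A* by -0.40 (standard error 0.08, adjusted p = 0.00953), and all 6 *mrn1Δ* values of the pair printed above lie below the wild-type values of the same gene. *RPS6B* differed by -0.38 (standard error 0.11, adjusted p = 0.0455), although that gene shares most of its 50-base windows with *RPS6A*. *RPS9B*, for a protein at the shoulder of the body, had 458, 411 and 482 CPM in *mrn1Δ* respiratory libraries, against 628, 551 and 552 CPM in wild-type respiratory libraries. It differed by -0.36 (standard error 0.08, adjusted p = 0.0175).

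*RPS15*, the only gene without a paralog among the 13, differed by -0.35 (standard error 0.08, adjusted p = 0.0148). In *RPS15* the *mrn1Δ* values, 474 to 550 CPM, all lay below the wild-type values, 619.9 to 689.8.

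At the other end, *RPS28B* (0.13, standard error 0.10), *RPS30A* (0.12, 0.13) and *RPS22B* (0.11, 0.09) had the highest values, none of them called. *RPS30A* (YLR287C-A), whose protein is made as a fusion with a ubiquitin-like domain in animals but not in yeast, had 61.2, 44.1 and 63.4 CPM in *mrn1Δ* and 52.3, 52 and 51 CPM in wild-type respiratory libraries, against 142, 149.7 and 146 CPM in *mrn1Δ* and 178, 152 and 144 CPM in wild-type fermentative libraries. Of the genes that share 50-base windows with a paralog 10 of 30 were called lower, and of those that share none 3 of 26. By position, 4 of 22 genes of the head and 9 of 34 of the body were called lower. Of all genes 7.83% were called lower in this comparison, and these sets were not tested against each other.

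The genotype difference ran with coding length among the 56 genes in respiratory growth. Pearson's r across genes was -0.49 (Spearman's rho -0.47, n = 56 genes, which share the same 6 libraries), so that longer genes had the lower values in *mrn1Δ*, whereas r over all 5800 genes was 0.003. In fermentative growth r was 0.35 for the 56 genes and 0.30 for all genes. These are descriptions across genes, which are not independent replicates, and their part in the calls was not tested.

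*RPS7* was the pair in which the genotypes differed in the balance of A and B. Rps7, a protein of the body that is ubiquitinated by Not4, comes in a pair of forms that differ in 23 of 190 residues, the most of any pair. *RPS7A* (YOR096W) had 411, 395 and 459 CPM in *mrn1Δ* and 549.9, 516 and 493 CPM in wild-type respiratory libraries, against 1617, 1584 and 1635 CPM in *mrn1Δ* and 1552, 1658 and 1474 CPM in wild-type fermentative libraries. *RPS7B* (YNL096C) had 171, 156 and 176 CPM in *mrn1Δ* and 166, 172 and 166 CPM in wild-type respiratory libraries, against 463, 461 and 487 CPM in *mrn1Δ* and 486, 505 and 459 CPM in wild-type fermentative libraries. In respiratory growth *RPS7A* was lower in *mrn1Δ* (-0.30, standard error 0.08, edgeR adjusted p = 0.0275), while the *RPS7B* values of the genotypes overlapped (-0.00, standard error 0.06). The A share was 70.6%, 71.6% and 72.3% in *mrn1Δ* respiratory libraries, against 76.8%, 75.0% and 74.8% in wild-type respiratory libraries. It was 77.7%, 77.4% and 77.1% in *mrn1Δ* fermentative libraries, against 76.1%, 76.7% and 76.2% in wild-type fermentative libraries.

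The log2 ratio of *RPS7A* to *RPS7B* differed by -0.30 between *mrn1Δ* and wild-type respiratory libraries (*mrn1Δ* minus wild type, standard error 0.05, limma adjusted p = 0.0147), 1 of 24 small-subunit pairs called where 2.56% of all 78 pairs were. Its shift in *mrn1Δ* was -0.45 (standard error 0.05, adjusted p = 5e-05) and in wild-type cells -0.06 (standard error 0.05, adjusted p = 0.299). The difference between the shifts was -0.39 (standard error 0.07, adjusted p = 0.0286), again 1 of 24, where 1.28% of the 78 pairs were called. The call of the difference was lost in 7 of the 12 fits that left out a library, with values between -0.42 and -0.34, and when replicate was fitted as a block (adjusted p = 0.112). The call in respiratory growth was lost without *mrn1Δ* respiratory replicate 1 or 2 and with the block (adjusted p = 0.054). The block joined libraries by number across the genotypes as well, where same-numbered libraries did not all deviate together.

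Whether the shift itself differed between genotypes was tested as an interaction on all 12 libraries. No small-subunit gene was called by edgeR, where 3.23% of 5828 genes were. 11 of the 56 had an unadjusted p under 0.05 (19.6%), all with the larger fall in *mrn1Δ*, as had 19.6% of all genes in either direction. DESeq2 called 8 lower, where it called 5.44% of all genes lower. Without wild-type fermentative replicate 2, edgeR called 4 lower (7.14%), *RPS0A*, *RPS0B*, *RPS1A* and *RPS7A*, where 5.93% of all genes were. Of the 56 values 44 were negative, against 2831 of all 5828. The median difference was -0.13, against 0.01 over all genes. It was -0.22 without wild-type fermentative replicate 1, -0.06 without *mrn1Δ* respiratory replicate 2 and -0.02 with library totals alone. *RPS0A* (-0.45, standard error 0.13, adjusted p = 0.0772) and *RPS0B* (-0.38, 0.12, 0.104) were among the lowest. *RPS22B* (0.25, standard error 0.12), *RPS30A* (0.23, 0.16) and *RPS28B* (0.19, 0.14) were highest. Scaled by library totals alone the median of all genes moved to 0.11 and that of the 56 genes to -0.02.

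The share of the library on the 56 genes differed between genotypes by -0.25 percentage points, *mrn1Δ* minus wild type (two-sided exact permutation test of genotype within stage, p = 0.1). In respiratory growth the 3 *mrn1Δ* libraries, 2.10% to 2.47%, all lay below the 3 wild-type libraries, 2.50% to 2.57%, and in fermentative growth the ranges overlapped, 5.66% to 5.998% in *mrn1Δ* and 5.81% to 6.64% in wild-type cells.

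Genes for the large subunit mostly fell too, while those for the mitochondrial small subunit moved in both directions. Of 82 large-subunit genes, 79 fell in *mrn1Δ* and 76 in wild-type cells with 0 higher, with medians of -1.49 and -1.38. The ratio of small-subunit to large-subunit counts was 0.575 to 0.598 in *mrn1Δ* and 0.557 to 0.596 in wild-type respiratory libraries, against 0.733 to 0.745 in *mrn1Δ* and 0.720 to 0.732 in wild-type fermentative libraries, with no overlap between the stages. Of 32 genes for the mitochondrial small subunit, 18 rose and 7 fell in *mrn1Δ*, and 13 rose and 8 fell in wild-type cells, with medians of 0.29 and 0.07. Over all genes tested, 43.2% were called higher and 40.3% lower in *mrn1Δ*, and 38.6% and 36.4% in wild-type cells. In respiratory growth 13 of the 82 large-subunit genes were lower in *mrn1Δ* and 0 higher, and 0 of the 32 mitochondrial genes were called. Of all genes, 7.83% were called lower and 6.79% higher in that comparison.

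Genes for the assembly of the small subunit fell as well. All 50 of a list of processome and assembly factors fell in both genotypes, with a median log2 fold change of -2.21 in *mrn1Δ* and -1.73 in wild-type cells. Of all genes tested, 40.3% in *mrn1Δ* and 36.4% in wild-type cells were called lower. *NOP1*, the methyltransferase of the small nucleolar particles, changed by -3.91 (standard error 0.08) and -3.59 (standard error 0.16). In respiratory growth 28 of the 50 were lower in *mrn1Δ*, where 7.83% of all genes were called lower. In the interaction 17 of the 50 were lower, where 2.11% of all genes were. *ENP1* (-0.67, standard error 0.11, adjusted p = 0.00689) and *BMS1* (-0.65, standard error 0.11, adjusted p = 0.00854) were among the 17.

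Dedicated chaperones and bound factors moved as well. *TSR2*, which escorts Rps26, had 5.21 ± 0.887 TPM in *mrn1Δ* and 9.84 ± 2.12 TPM in wild-type respiratory libraries, against 66.8 ± 3.23 and 73.1 ± 10.8 TPM in fermentative libraries of the same genotypes (SD, n = 3 each). It changed by -4.04 (standard error 0.12) in *mrn1Δ* and -3.21 (standard error 0.19) in wild-type cells on the log2 scale. *FAP7*, which escorts Rps14, changed by -2.12 and -1.81, and *YAR1*, which escorts Rps3, by -1.24 and -1.07. *ASC1*, a scaffold protein bound to the head, changed by -0.83 in *mrn1Δ* and -0.44 in wild-type cells.

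Of 12 regulators of ribosomal protein and ribosome biogenesis genes, 3 rose and 7 fell in *mrn1Δ*, and 2 rose and 6 fell in wild-type cells. Of all genes, 43.2% were called higher and 40.3% lower in *mrn1Δ*, and 38.6% and 36.4% in wild-type cells. Whether this short list differs from all genes was not tested. *IFH1*, the coactivator of ribosomal protein genes, had 7.2 ± 0.496 TPM in *mrn1Δ* and 8.48 ± 1.37 TPM in wild-type respiratory libraries, against 33.7 ± 0.762 and 31.7 ± 3.32 TPM in fermentative libraries of the same genotypes. Its log2 fold change was -2.58 (standard error 0.06) in *mrn1Δ* and -2.20 (standard error 0.12) in wild-type cells. The repressors moved in both directions. *DOT6* and *STB3* rose by 1.21 and 1.21 in *mrn1Δ* and by 1.61 and 1.24 in wild-type cells. *TOD6*, the paralog of *DOT6*, changed by -1.91 and -1.37, and the corepressor gene *CRF1* by -0.44 and -0.66, in *mrn1Δ* and wild-type cells. In respiratory growth *RAP1* (0.54, standard error 0.06, adjusted p = 0.00046) and *SFP1* (0.32, standard error 0.05, adjusted p = 0.00293) were higher in *mrn1Δ* than in wild-type cells.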

How the data were processed

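Total RNA from triplicate cultures was depleted of ribosomal RNA and sequenced. For each coding sequence of the R64 build the authors deposited an estimated count from kallisto 0.44.0 (per the labels), with no normalization between libraries, and a TPM value, scaled for length and to a common sum per library. The deposited tables also give a length and an effective length. The strand setting and the RNA-seq test are not given in the sources used here. Of 5917 identifiers, 5911 matched the R64 reference by systematic name, 6 did not, and 99.9% of the matched had equal lengths. Estimated counts, not whole in 623 coding sequences (tolerance 1e-06), were rounded.

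Groups were compared with edgeR 4.0.16 in R 4.3.3 (TMM, expression filter, robust quasi-likelihood test, Benjamini-Hochberg adjustment over all genes), on the 6 libraries of each comparison, and on all 12 for the interaction. A gene was called at an adjusted p under 0.05. Ratios of paralogs, log2 of counts plus a pseudocount of 0.5, were fitted with limma 3.58.1, and shares were tested by exact permutation. With 3 against 3 libraries that test cannot go below 0.1. Wilson intervals (95%) cover counting error only. Settings were tested on simulated data. Python 3.11.15, numpy 2.4.6, pandas 2.3.3, scipy 1.17.1 and matplotlib 3.10.9 were used.

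Same-numbered wild-type libraries of the 2 stages deviated together (correlations 0.209, 0.195 and 0.113 across genes). The numbers may therefore pair the wild-type shift, judged from the data alone. The main tests did not use this pairing, which entered only through the replicate block among the alternatives. Differently numbered wild-type libraries of the 2 stages had -0.171 to 0.012. A differently numbered pair of a wild-type and an *mrn1Δ* respiratory library, however, reached 0.217. In the other comparisons not every such correlation was over 0.1.

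The alternatives were DESeq2 1.42.0, upper-quartile scaling, library totals alone, TMM without ribosomal protein genes, a replicate block, each library left out, paralogs summed, no low-count filter, a minimum of 10 counts per library, and a single fit to all 12 libraries, and for ratios a pseudocount of 5, ribosomal protein pairs only and the deposited TPM. The genes and lists were chosen with earlier results of these data known. Values in every library are given for genes without a paralog, the 3 highest and 3 lowest genes by level and in each comparison, the 6 most and 3 least changed pairs, and genes called between genotypes (the 6 largest). Single results of some of the genes are not reported here, though they are counted in all totals, medians and ranges. The places of proteins in head or body were assigned after the counts were seen.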

Additional observations from a re-analysis of the deposited data

Results flagged for a closer look

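The log2 ratio of *RPS7A* to *RPS7B* differed between the genotypes in its response to the shift, by -0.39 (standard error 0.07, limma adjusted p = 0.0286 over 78 pairs, 12 libraries). The call was lost in 7 of the 12 fits that left out a library, and with the replicate block (adjusted p = 0.112). All 3 *mrn1Δ* respiratory libraries had a smaller *RPS7A* share than any of the other 9 libraries.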

How the results depend on the processing

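Both shifts kept 56 of 56 genes lower in all settings at the level of genes, and with paralogs summed 32 of 32 proteins were lower in each. The median log2 fold change in the *mrn1Δ* shift was -1.54 with library totals alone, a scaling that moved the median of all genes from 0.05 to 0.22. With libraries left out it lay between -1.76 and -1.64 in *mrn1Δ* and between -1.59 and -1.43 in wild-type cells. In respiratory growth 6 proteins were lower in *mrn1Δ* with paralogs summed, where 8.02% of all genes were. With a library left out 1 to 11 genes were lower and 0 to 1 higher, and the cause was not tested. In those fits 2.84% to 8.15% of all genes were called lower and 2.62% to 7.67% higher. In the interaction DESeq2 called 8 genes lower, where it called 5.44% of all genes lower. With a library left out 0 to 4 were called lower, where 0.857% to 5.93% of all genes were, and the median lay between -0.22 and -0.06. The median of the genotype difference lay between -0.24 and -0.09 in respiratory growth with a library left out. Changed pair ratios between genotypes in respiratory growth numbered 0 with the replicate block and 0 to 2 with a library left out. In the interaction they numbered 0 with the replicate block (*RPS7*, limma adjusted p = 0.112) and 0 to 1 with a library left out. The difference in library share between genotypes, -0.25 percentage points, gave p = 0.0312 with the replicate block (exact sign flips, the smallest that 64 arrangements allow). That block pairs *mrn1Δ* with wild-type libraries by number, a pairing that the data do not show. Same-numbered libraries correlated by -0.079 to 0.21 in fermentative and -0.157 to 0.168 in respiratory growth. With a library left out the difference lay between -0.32 and -0.11 (exact permutation p = 0.045 without wild-type fermentative replicate 3). *RPS27B* in fermentative growth ranged from -0.39 to 0.0044 with a library left out, the last without wild-type fermentative replicate 1. The replicate block changed no call of the 56 genes in the shifts. It gave 15 lower in *mrn1Δ* in respiratory growth, where 8.62% of all genes were lower. The depth, at least 262 counts for each gene, does not separate paralogs whose coding sequences are nearly identical.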
